A study of Elaeis guineensis with 18 samples.

Results

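The response of oil palm leaves to waterlogging was read from 6 RNA-Seq libraries, 3 of waterlogged and 3 of control seedlings, out of 18 libraries of 6 groups in the whole series. The members, these 6 libraries, were chosen by their treatment label, and every gene that passed a filter on low counts was compared. Deli Dura seedlings of wild type genotype were used throughout. Waterlogged seedlings stood for 2 weeks in water held 1 inch over the soil at 28 °C, and control seedlings were given 200 mL of water daily at 28 °C. Drought (0 mL, 28 °C), salinity (0.2 M NaCl, 28 °C), heat (40 °C) and cold (10 °C) seedlings were compared directly with waterlogging, and their libraries also entered the estimate of the spread behind every test. Each biological replicate was made from the third leaf of 3 seedlings, so a library is a pool, and there was 1 time point. The flooded organ, the root, was not sampled.

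In waterlogged soil the pores fill with water and oxygen reaches the roots slowly. Roots then turn to fermentation (genes of that pathway could not be picked out without gene descriptions and are not analysed here), take up less water and mineral ions and send signals such as ethylene and abscisic acid (ABA) to the shoot. Leaves of flooded plants are known for closing their stomata and for accumulating sugars. Photosynthesis, sugar metabolism and hormone signalling are the leaf processes most often followed in flooded plants.

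The tables held 30606 genes. For 29750 of them the identifier is an NCBI gene number (prefixed LOC here), and the other 856 are gene models that the authors added, such as Novel00299. Waterlogging libraries held 19167300, 19376063 and 14839345 counted reads, and control libraries 17434882, 17909289 and 18103289. A few very abundant genes took more of the reads under waterlogging: the 10 largest genes of each library held 11.3 to 13.7% of its reads under waterlogging and 7.18 to 8.23% in control. Scaling by TMM, which sets the bulk of genes equal between libraries, gave waterlogging libraries factors of 0.783 to 0.880 and control libraries 1.086 to 1.140. Rank correlations (Spearman) between libraries were 0.954 to 0.981 within waterlogging, 0.980 to 0.983 within control and 0.901 to 0.929 between the groups. The lowest of these within a group was between Waterlogging 1 and Waterlogging 3. The 3 libraries of a group came from biological replicates drawn at random from those grown, and the p-values below measure the spread between these pools of 3 seedlings. Since whole leaves were extracted, fewer cells of a type and less RNA per cell cannot be told apart.

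Waterlogging changed a large share of the leaf transcriptome, and with TMM scaling more genes went up than down. Of 23830 tested genes, 4668 (19.6%) were differentially expressed genes (DEGs), meaning a change of at least 2-fold with an adjusted p under 0.05 in edgeR's quasi-likelihood test. Of these, 2873 (12.1% of all tested) were higher and 1795 (7.53%) lower under waterlogging than in control. The libraries of the groups did not overlap for 2707 of the higher and 1695 of the lower DEGs, beside 51.1% of all tested genes. DEGs were called on these same values, so their lack of overlap is not independent evidence. A change over 4-fold was found for 972 higher and 438 lower DEGs. The split between directions rests on the scaling. With TMM 61.5% of DEGs were higher, and the median log2FC of all genes was -0.05. With plain library totals only 28.9% were higher (1736 higher and 4277 lower), and the median was -0.46. All 1795 lower DEGs and 1736 of the 2873 higher DEGs stayed DEGs in the same direction under library totals. None was called in the opposite direction.

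**Figure D1:**
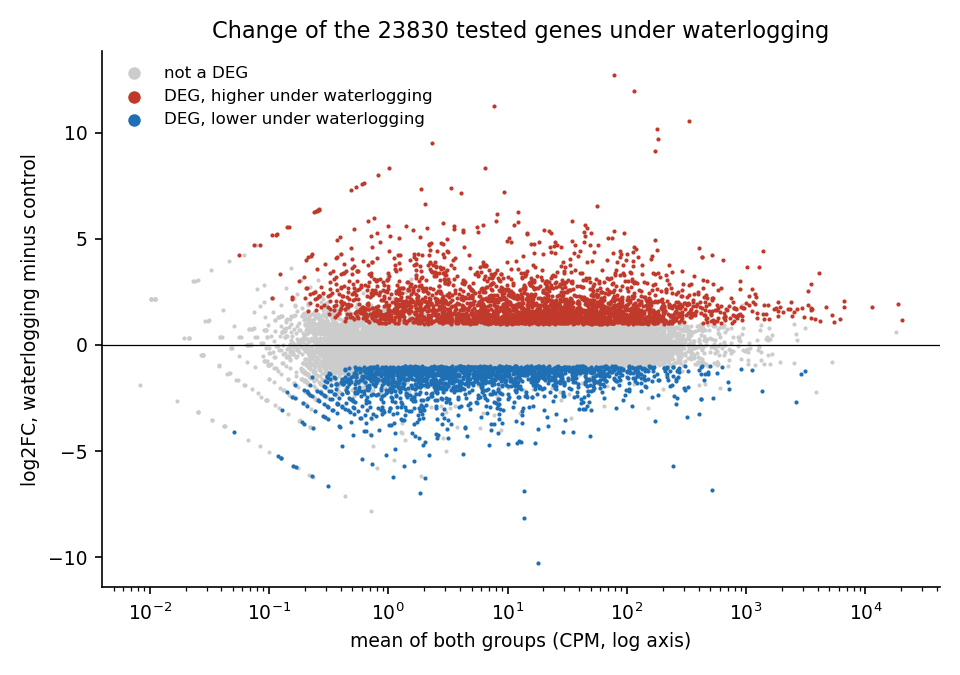
Each point is 1 of the 23830 tested genes, with the mean level of the waterlogging and control groups in CPM (reads scaled to a common library size, log axis) on the x axis and the log2FC of waterlogging minus control on the y axis. Red points are the 2873 higher and blue points the 1795 lower DEGs, and the most abundant genes on the right lie mostly above 0.

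Some of the largest changes were near on/off switches, though the files give no description of these genes. Levels are given in CPM, the reads of a gene scaled to a common, TMM-adjusted library size. LOC105046841 had 270, 135.7 and 62.05 CPM in Waterlogging 1 to 3, against 0, 0.0514 and 0 CPM in control, where a single read was counted in all. The ratio of its reads, 9428-fold, has a counting interval of 1692 to 372447 (95%, counting error only). Novel00769 had 393.5, 193.3 and 101.4 CPM under waterlogging and 0, 0.0514 and 0.101 CPM in control. Its mean was 127.7 CPM in drought, 120.6 in salinity, 28.5 in heat and 27.4 in cold, so only control lay near 0. In the other direction, LOC105048270 had 8.53, 5.90 and 12.4 CPM under waterlogging, against 1267, 583.6 and 1212 CPM in control (log2FC -6.84 ± 0.64 SE, adjusted p 1.13e-06). LOC105055156 had 0.400, 0.186 and 0.0766 CPM under waterlogging and 24.7, 29.6 and 27.7 CPM in control. In all 4 genes the groups stood far apart, and both risen genes were highest in Waterlogging 1 and lowest in Waterlogging 3.

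Most listed genes of the photosynthetic light reactions were higher under waterlogging. Lists of genes were taken from the study's table of Gene Ontology (GO) terms, which names for each term the members that the study had called as DEGs under at least 1 stress. The lists were thus chosen on these same samples. Neither their direction nor a lack of overlap between the groups is independent evidence. Counts of list members, here and below, stand beside 12.1% higher and 7.53% lower among all tested genes. Light-harvesting proteins bind chlorophyll and pass excitation energy to the photosystems. All 21 listed light-harvesting genes were tested, 20 were higher, 0 were lower, and their median log2FC was 1.68, against -0.05 for all genes tested. In none of the 21 did the groups overlap, beside 51.1% without overlap among all tested genes. With library totals 16 of the 21 were still higher DEGs.

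LOC105047188, a light-harvesting gene that took many reads, had 16828, 20536 and 14851 CPM under waterlogging, against 2648, 5981 and 6667 CPM in control (log2FC 1.77 ± 0.35 SE, adjusted p 0.000644). LOC105048687 had 7276, 13193 and 11779 CPM under waterlogging and 1032, 3372 and 3354 CPM in control. Control 1 was the lowest library for both. The largest change in this group was that of LOC105032994, with 337.0, 213.0 and 141.8 CPM under waterlogging and 8.50, 10.1 and 11.3 CPM in control (log2FC 4.53 ± 0.32 SE, adjusted p 1.62e-07). The single light-harvesting gene that was not a DEG, LOC105032174, had 20699, 24737 and 19866 CPM under waterlogging and 9654, 15759 and 17767 CPM in control (log2FC 0.60, adjusted p 0.0603).

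Taken as a share of all counted reads, which scales by library totals, the 21 light-harvesting genes held 8.33, 11.3 and 9.07% of the reads in Waterlogging 1 to 3. In control libraries they held 3.05, 5.53 and 5.90%. The groups did not overlap on this measure either. Salinity libraries held 6.88 to 9.70%, overlapping the waterlogging range, while drought held 4.08 to 6.37%, heat 4.88 to 5.82% and cold 1.85 to 2.32%. Such abundance of chlorophyll-binding transcripts is that of leaf tissue, as labelled.

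**Figure D2:**
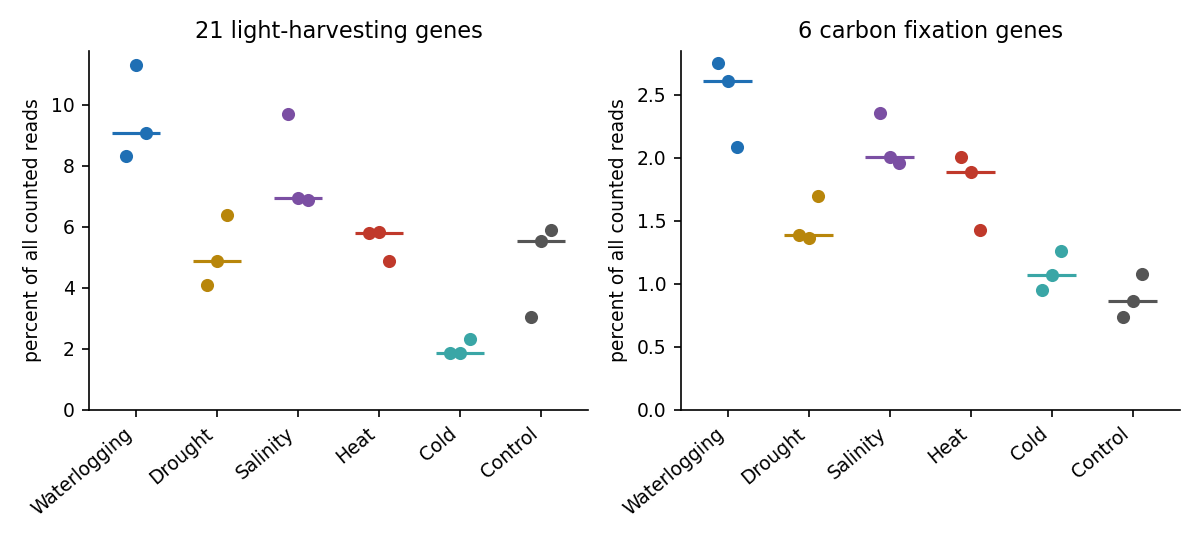
Share of all counted reads, in percent, taken by the 21 light-harvesting genes (left) and the 6 carbon fixation genes (right) in each of the 18 libraries, with 3 points per group and a bar at the group median. In waterlogging libraries the light-harvesting genes held 8.33 to 11.3% of all counted reads, above the control range of 3.05 to 5.90%.

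The photosystems themselves followed. Photosystem I (PSI) passes electrons to ferredoxin, and all 5 listed genes of its reaction centre were higher, with log2FC of 1.22 to 1.92. For example, LOC105044241 had 1787, 1702 and 1450 CPM under waterlogging, against 364.2, 481.3 and 513.9 CPM in control (log2FC 1.86 ± 0.18 SE, adjusted p 1.32e-06). Under the wider PSI term, which also holds the antenna genes, 27 of 28 were higher and 0 lower. Photosystem II (PSII) takes electrons from water, and 34 of its 43 listed genes were higher and 0 lower, with log2FC of -0.68 to 9.13 and a median of 1.54. With library totals the count for PSII was 25 higher and 1 lower.

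The oxygen-evolving complex carries out the splitting of water on PSII. All 12 listed genes of this complex were higher, with a median log2FC of 1.56, although 7 of them were DEGs with library totals. LOC105049085 stood apart from the others. It had 461.3, 355.2 and 220.6 CPM under waterlogging, against 0.604, 0.154 and 1.06 CPM in control (log2FC 9.13 ± 0.54 SE, adjusted p 8.23e-08). LOC105053658 of the same list had 98.7, 95.6 and 70.5 CPM under waterlogging and 11.8, 13.9 and 16.9 CPM in control. The chloroplast NDH complex, which returns electrons to the plastoquinone pool, had 3 listed genes, all higher. One of these, LOC105046631, had 84.9, 78.7 and 59.7 CPM under waterlogging and 18.8, 22.2 and 21.2 CPM in control (log2FC 1.84 ± 0.16 SE, adjusted p 7.52e-07).

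Genes that use the products of the light reactions were higher as well. Carbon fixation builds CO2 into sugar phosphates in the chloroplast stroma, and 5 of its 6 listed genes were higher. LOC105041203 had 34358, 30866 and 23153 CPM under waterlogging, against 6213, 7649 and 9713 CPM in control (log2FC 1.91 ± 0.27 SE, adjusted p 3.96e-05). As a share of reads the 6 genes held 2.75, 2.61 and 2.09% under waterlogging and 0.733, 0.860 and 1.08% in control. The non-oxidative branch of the pentose-phosphate shunt regenerates the acceptor of CO2, and all 5 of its listed genes were higher. Of these, LOC105046826 had 12.8, 14.7 and 8.81 CPM under waterlogging and 0.956, 0.874 and 0.810 CPM in control (log2FC 3.77 ± 0.38 SE, adjusted p 2.10e-06). Glycine breakdown in mitochondria is a step of photorespiration, and all 3 listed genes were higher, with log2FC of 1.28 to 1.87.

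Carotenoids protect chlorophyll from excess light and are the source of ABA. In this list 6 of 7 genes were higher and 1 lower, and with library totals 3 were higher. LOC105043314 had 189.4, 185.8 and 142.7 CPM under waterlogging, against 15.55, 21.81 and 25.97 CPM in control (log2FC 3.03 ± 0.30 SE, adjusted p 1.94e-06). The lower one, LOC105060468, was read only 3 times under waterlogging and 82 times in control. Its level was 0.0666, 0.124 and 0 CPM under waterlogging and 1.91, 0.309 and 1.92 CPM in control.

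**Figure D3:**
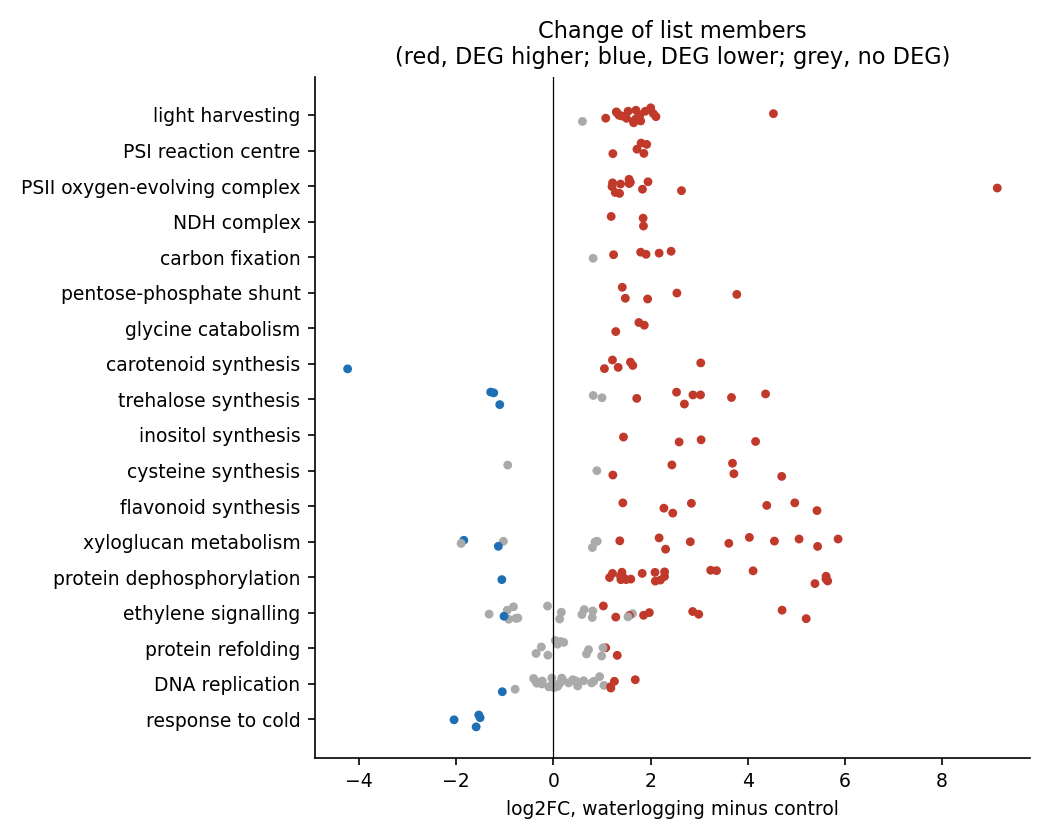
Each point is a tested member of a list from the study's GO table, placed by its log2FC of waterlogging minus control; red points are higher DEGs, blue points lower DEGs and grey points neither. Members of the photosynthesis lists cluster between 1 and 2, those of the sugar, flavonoid and xyloglucan lists spread further, and those of protein refolding and DNA replication lie around 0.

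Genes of small sugars and sugar alcohols changed in both directions. Trehalose-6-phosphate is a signal of sugar status in plants, and among 12 listed genes of trehalose synthesis 7 were higher and 3 lower, with a median log2FC of 2.12. LOC105048615 had 7.13, 13.35 and 11.95 CPM under waterlogging, against 1.01, 0.977 and 0.557 CPM in control (log2FC 3.66 ± 0.45 SE, adjusted p 1.28e-05). LOC105053174 moved the other way, with 60.1, 73.8 and 52.9 CPM under waterlogging and 157.4, 146.0 and 154.1 CPM in control (log2FC -1.29 ± 0.19 SE, adjusted p 6.13e-05).

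Inositol-3-phosphate synthase makes the precursor of inositol, which serves in membranes, phosphate storage and signalling. All 4 listed genes of inositol synthesis were higher, and 3 of them are described by the study as this enzyme. LOC105048608 had 583.4, 869.5 and 885.5 CPM under waterlogging, against 61.7, 122.0 and 100.8 CPM in control (log2FC 3.04 ± 0.27 SE, adjusted p 8.99e-07). The others differed greatly among the waterlogging libraries. LOC105032996 had 124.6, 545.9 and 429.4 CPM under waterlogging and 49.3, 68.4 and 65.4 CPM in control. LOC105041643 had 12.9, 297.2 and 398.0 CPM under waterlogging and 7.80, 18.77 and 13.01 CPM in control (log2FC 4.16 ± 0.86 SE, adjusted p 0.001). Waterlogging 1 fell within the control range for that gene, so its groups overlapped.

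Flavonoid genes also differed greatly among the waterlogging libraries. Flavonoids are phenolic compounds that include pigments and antioxidants. All 7 listed genes were called higher, but the groups overlapped for 4 of them, and without Waterlogging 3 only 3 were called. LOC105060373 had 326.4, 811.6 and 4869 CPM under waterlogging, against 297.8, 245.4 and 699.4 CPM in control (log2FC 2.27 ± 0.81 SE, adjusted p 0.0304). Its log2FC without Waterlogging 3 was 0.46 (adjusted p 0.574). LOC105034618 had 10.99, 69.18 and 222.5 CPM under waterlogging and 2.97, 1.03 and 10.4 CPM in control. Waterlogging 3 was the highest and Waterlogging 1 the lowest of the waterlogging libraries in each case.

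Across all DEGs the waterlogging libraries did not contribute alike. Among 2204 higher DEGs with a waterlogging mean of at least 5 CPM, 1222 were highest in Waterlogging 1, 480 in Waterlogging 2 and 502 in Waterlogging 3. But of the 93 whose waterlogging libraries differed by 4-fold or more, 69 were highest in Waterlogging 3. In the control libraries 27 of the higher DEGs with a control mean of at least 5 CPM had such a spread, and 26 of these were highest in Control 3. Among 631 lower DEGs at that level, 64 had such a spread and 60 of these were highest in Waterlogging 3. Waterlogging 3 was also the library with the fewest reads. Without it 2959 genes were higher and 2098 lower. What this library and Control 3 have of their own was not tested.

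More listed cell wall genes were higher than lower, but their share of reads did not rise clearly. The 18 genes listed under cell wall biogenesis, 10 higher and 2 lower, held 0.0217 to 0.0356% of all reads under waterlogging. In control they held 0.0249 to 0.033%, so the groups overlapped on this measure, which scales by library totals. Enzymes of xyloglucan metabolism cut and rejoin the chains that tie cellulose fibrils together, and among 17 listed genes 10 were higher and 2 lower, with a median log2FC of 2.17. LOC105049188 had 26.8, 37.5 and 55.2 CPM under waterlogging, against 1.56, 0.566 and 0.608 CPM in control (log2FC 5.44 ± 0.60 SE, adjusted p 4.66e-06). LOC105037481 had 23.7, 15.2 and 20.9 CPM under waterlogging and 0.403, 0.103 and 1.27 CPM in control. One of the lower members, LOC105052932, had 37.7, 93.0 and 121.3 CPM under waterlogging and 147.8, 230.2 and 175.1 CPM in control. That call was lost without Waterlogging 1 (log2FC -0.78) and without Control 2 (adjusted p 0.0600).

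Cysteine synthesis brings reduced sulphur into metabolism and feeds glutathione, a cellular antioxidant. Of 7 listed genes 5 were higher and 0 lower. LOC105050935 had 2576, 1791 and 1295 CPM under waterlogging, against 132.0, 166.7 and 141.5 CPM in control (log2FC 3.69 ± 0.26 SE, adjusted p 1.50e-07). Fatty acid genes, a list drawn from the heat samples, were mixed, with 8 of 27 higher and 4 lower. LOC105047853 was among the most even of the large changes, with 992.0, 967.1 and 981.2 CPM under waterlogging and 58.9, 57.2 and 41.6 CPM in control (log2FC 4.22 ± 0.32 SE, adjusted p 2.78e-07). LOC105047747 of the same list had 0.600, 0.932 and 0.766 CPM under waterlogging and 13.6, 29.3 and 15.5 CPM in control (log2FC -4.65 ± 0.45 SE, adjusted p 1.41e-06). Without Waterlogging 3 the lower fatty acid genes numbered 8.

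Transcripts of listed transport genes changed in both directions. Of the 7 genes listed under carbohydrate transport across membranes, 1 was higher and 3 lower, beside 12.1% and 7.53% of all tested genes. The wider lists were mixed, with 5 of 18 higher and 4 lower under carbohydrate transport and 9 of 21 higher and 6 lower under symporter activity. The most changed was LOC105038105, with 0.333, 0.497 and 0.689 CPM under waterlogging and 22.7, 4.22 and 13.3 CPM in control (log2FC -4.72 ± 0.53 SE, adjusted p 5.84e-06). Genes of channel activity, a list drawn from the heat samples, were on the other hand higher in 8 of 14 cases and lower in none. LOC105054514 of that list had 260.8, 247.1 and 134.7 CPM under waterlogging and 15.95, 34.15 and 36.1 CPM in control (log2FC 2.90 ± 0.40 SE, adjusted p 3.21e-05).

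Signalling genes were described by the study in a table of kinases and related proteins that changed under all of its stresses, so they too were chosen on these samples. Of its 32 genes 31 were tested, all were DEGs under waterlogging, and none overlapped between the groups, beside 19.6% DEGs and 51.1% without overlap among all tested genes. Receptor-like kinases with leucine-rich repeats (LRR), which sit in the plasma membrane and sense peptides or microbial molecules, were lower in 9 of 10 cases, with a median log2FC of -1.91. LOC105046018 had 12.1, 8.38 and 12.7 CPM under waterlogging, against 119.5, 70.2 and 57.5 CPM in control (log2FC -2.90 ± 0.32 SE, adjusted p 4.59e-06). LOC105049067, described as FLS2, the receptor of bacterial flagellin in Arabidopsis, had 1.332, 13.97 and 31.18 CPM under waterlogging and 110.2, 67.0 and 58.4 CPM in control. It was not called when edgeR was run on the 6 libraries alone (adjusted p 0.0737). LOC105060377, with 0, 1.43 and 3.6 CPM under waterlogging and 20.5, 7.97 and 9.01 CPM in control, was called at an adjusted p of 0.0303 and not without Control 1, Waterlogging 1 or Waterlogging 2 (adjusted p 0.0684 to 0.115). The exception was LOC105060930, with 126.4, 98.0 and 163.4 CPM under waterlogging and 34.02, 22.94 and 27.95 CPM in control (log2FC 2.19 ± 0.28 SE, adjusted p 1.45e-05).

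Calcium sensors and transporters went both ways, with 6 of 9 higher and 3 lower. The higher ones included the calcium-binding protein CML10 (LOC105057654), with 251.6, 225.6 and 245.0 CPM under waterlogging and 56.9, 58.9 and 66.2 CPM in control (log2FC 1.99 ± 0.19 SE, adjusted p 1.20e-06). CBL-interacting kinases are switched on by calcium sensors of the CBL family. LOC105057189 (kinase 18-like) had 37.77, 34.03 and 29.8 CPM under waterlogging and 6.19, 5.76 and 4.76 CPM in control (log2FC 2.60 ± 0.17 SE, adjusted p 1.30e-07). The lower ones were proteins that hold or pump calcium. Calsequestrin-1-like LOC105039810 had a log2FC of -2.59, putative calcium-transporting ATPase 13 (LOC105046582) of -1.60, and calreticulin-3-like LOC105035928 of -1.13.

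MAP kinases relay signals in cascades. MAP kinase 5 (LOC105044664) had 477.5, 341.6 and 342.5 CPM under waterlogging, against 56.81, 44.95 and 39.39 CPM in control (log2FC 3.04 ± 0.29 SE, adjusted p 1.36e-06). A kinase placed higher in such cascades, MAPKKK7-like (LOC105055153), had 11.1, 10.3 and 15.5 CPM under waterlogging and 63.6, 62.9 and 67.7 CPM in control (log2FC -2.40 ± 0.18 SE, adjusted p 2.78e-07).

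Protein phosphatases 2C (PP2C) remove phosphate from serine and threonine, and some of them act as brakes on ABA signalling. The table holds 4 of them, and 3 were higher. PP2C 32 (LOC105044577) had 182.7, 158.6 and 114.3 CPM under waterlogging, against 2.97, 2.31 and 5.62 CPM in control (log2FC 5.38 ± 0.47 SE, adjusted p 7.42e-07). Another gene of the same description, LOC105057113, had 16.4, 26.1 and 24.4 CPM under waterlogging and 0.252, 0.566 and 0.506 CPM in control. PP2C 12 (LOC105040470) was lower, with a log2FC of -1.16 ± 0.15 SE. In the wider GO term of protein dephosphorylation 21 of 22 listed genes were higher and 1 lower, with 16 higher under library totals.

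Cytosolic pyrophosphatases split pyrophosphate, a side product of biosynthesis and an energy donor when ATP is short. Both inorganic pyrophosphatase 2-like genes of the table were higher. LOC105047312 had 222.7, 149.7 and 185.4 CPM under waterlogging, against 3.32, 4.78 and 6.28 CPM in control (log2FC 5.28 ± 0.37 SE, adjusted p 1.42e-07). LOC105042868 had 33.2, 36.6 and 21.4 CPM under waterlogging and 0.503, 1.59 and 1.32 CPM in control (log2FC 4.74 ± 0.37 SE, adjusted p 2.96e-07).

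**Figure D4:**
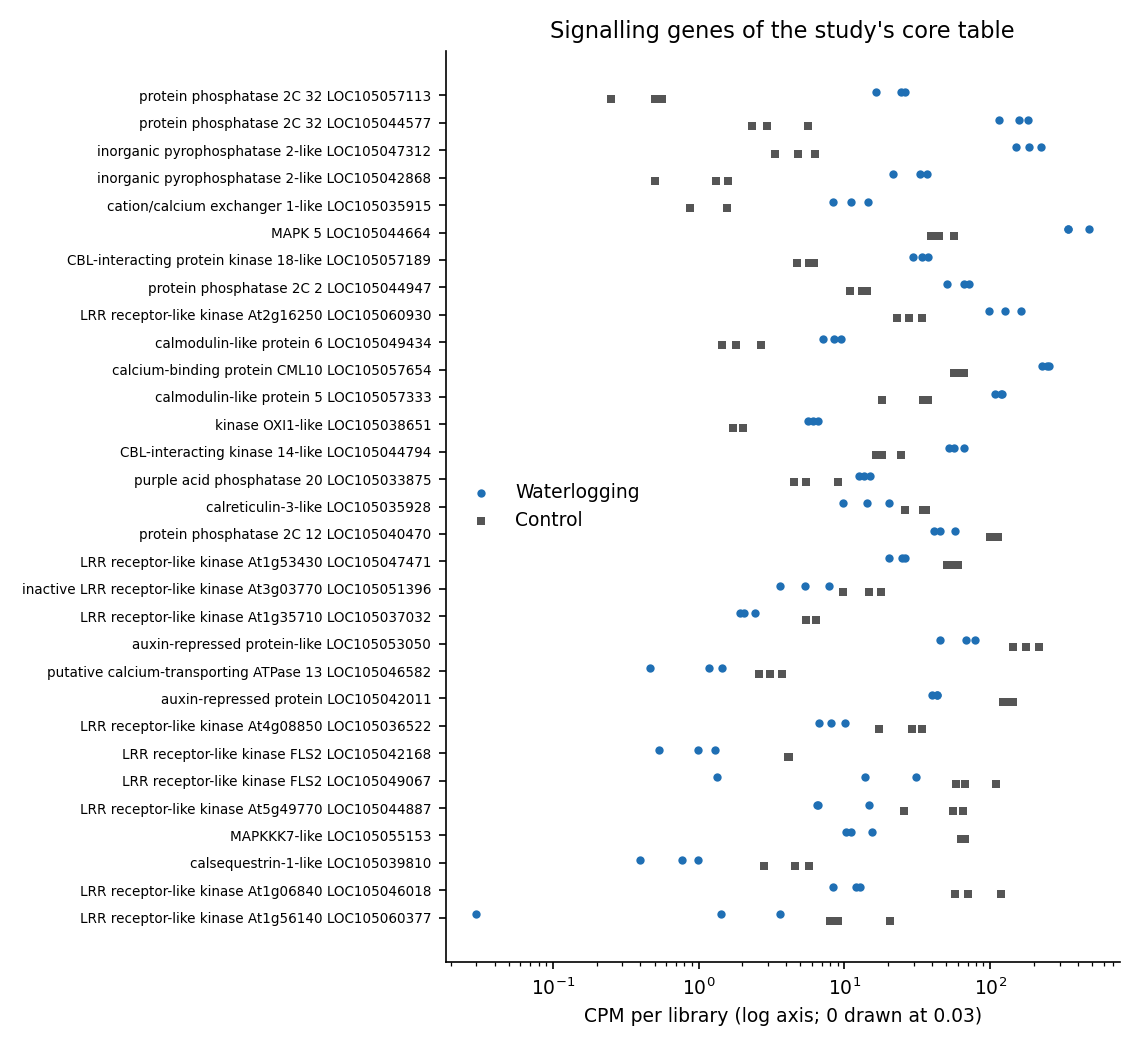
CPM in each library (log axis, 0 drawn at 0.03) of the 31 tested genes of the study's table of core signalling genes, with circles for the 3 waterlogging and squares for the 3 control libraries, ordered by log2FC. No gene has overlapping groups; PP2C 32 (LOC105057113) is at the top and the LRR receptor-like kinase LOC105060377 at the bottom.

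Among hormone genes, the ABA receptor PYL4-like (LOC105044738) was lower, with 2.93, 2.86 and 2.37 CPM under waterlogging, against 12.58, 12.24 and 14.03 CPM in control (log2FC -2.25 ± 0.32 SE, adjusted p 5.05e-05). PYL proteins bind ABA and then inhibit PP2C phosphatases. Both auxin-repressed proteins of the table were lower. LOC105042011 had 40.2, 43.5 and 43.2 CPM under waterlogging and 144.4, 128.7 and 122.6 CPM in control (log2FC -1.64 ± 0.16 SE, adjusted p 1.41e-06). LOC105053050 had 45.4, 68.3 and 78.4 CPM under waterlogging and 177.2, 143.8 and 215.0 CPM in control.

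Ethylene gathers in flooded tissue because water slows its escape. Its listed signalling genes were mixed, with 9 of 25 higher and 1 lower, a median log2FC of 0.80 and overlapping groups in 7. With library totals 7 were higher and 7 lower, and the number of lower genes changed from 1 to 3 without Waterlogging 3. LOC105058243 had 26.7, 26.8 and 31.2 CPM under waterlogging, against 0.554, 0 and 1.72 CPM in control (log2FC 5.20 ± 0.71 SE, adjusted p 3.17e-05). LOC105060890 had 73.5, 68.1 and 69.1 CPM under waterlogging and 1.36, 0.206 and 6.48 CPM in control (log2FC 4.71 ± 0.76 SE, adjusted p 0.000140). For both the waterlogging libraries lay close together while the control libraries were spread. An ACC synthase gene (LOC105043536), ACC being the precursor of ethylene, was called higher at a very low level of 0.266, 0.373 and 0.613 CPM under waterlogging and 0, 0.154 and 0.0506 CPM in control (log2FC 2.50 ± 0.92 SE, adjusted p 0.0362).

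Some lists were drawn by the study from its heat or cold samples. Their members were chosen under those stresses, so a difference from lists drawn under other stresses is not independent evidence. Several lists above were not drawn from the waterlogging samples either, such as carbon fixation (salinity) and flavonoid synthesis (drought and salinity). Protein refolding, the work of chaperones, had 2 of 13 genes higher and 0 lower, and Hsp90 binding 2 of 11 higher and 0 lower. DNA replication had 4 of 30 higher and 1 lower. The higher shares of 15.4, 18.2 and 13.3% were near the 12.1% of all tested genes. All 4 genes listed under response to cold, which came from the drought samples, were lower, with log2FC of -2.05 to -1.51. The higher share was larger in other lists drawn from heat. Response to heat had 5 of 12 higher, unfolded protein binding 8 of 26 higher and 1 lower, and channel activity 8 of 14 higher and 0 lower. Chaperone binding, whose list was drawn from the drought, waterlogging and heat samples together, had 12 of 19 higher and 0 lower (6 higher with library totals). Heat, cold and drought DEGs were called against the same control libraries.

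The study lists 10 genes as raised under waterlogging alone. They were chosen on these same samples, so neither their direction nor their standing against other stresses is independent evidence. Of the 10 genes 7 passed the filter on low counts and all 7 were higher than in control, with log2FC of 3.66 to 8.34. Set directly against the other stresses, 5 of the 7 were higher than under drought, 0 differed from salinity (median log2FC 1.72), 6 were higher than under heat and 5 higher than under cold. Nicotianamine synthase 3 (LOC105045032), which makes a chelator of iron and other metals, had 4.86, 4.60 and 1.30 CPM under waterlogging, against 0.101, 0.206 and 0 CPM in control (log2FC 5.06 ± 0.85 SE, adjusted p 0.000187). TIFY 5A-like (LOC105059530), of a family that includes repressors of jasmonate signalling, had 4.396, 1.801 and 8.886 CPM under waterlogging and 0.403, 0.669 and 0.101 CPM in control (log2FC 3.66 ± 0.68 SE, adjusted p 0.000449). Lysine histidine transporter 1-like (LOC105051602) had 18, 11 and 3 reads under waterlogging and 1, 1 and 0 in control.

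The 3 untested genes were barely read. ORM1-like protein 2 (LOC105056421), whose family restrains sphingolipid synthesis, had 4, 17 and 14 reads under waterlogging and 0, 0 and 1 in control. Histidine-containing phosphotransfer protein 4 (LOC105047441), of a family that relays cytokinin signals, had 20, 29 and 1 reads under waterlogging and 1, 0 and 2 in control. Amino acid permease 3 (LOC105038469) had 18, 8 and 4 reads under waterlogging and 0, 0 and 2 in control, but also 10 and 15 reads in Drought 1 and 2. The 7 tested and 3 untested genes thus had higher counts than control in most waterlogging libraries. For the 3 untested genes and some of the tested ones these were few reads.

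In several of these genes the signal came from whole libraries rather than from whole groups. The pyrophosphate-energized vacuolar proton pump gene (LOC105034637), whose protein acidifies the vacuole, had 453, 422 and 207 reads under waterlogging, against 3, 6 and 9 in control. But it had 362 reads in Salinity 2 and 160 in Cold 2, with 11 or fewer in every other library. LOC105032992, uncharacterized, had 205, 178 and 188 reads under waterlogging, 351 in Salinity 2 and 266 in Cold 2. It had 2 reads in Control 1 and 0 in each of the other 12 libraries. The receptor-like kinase LOC105037078 had 19, 16 and 29 reads under waterlogging, 48 in Salinity 2, 7 in Cold 2, 1 in Control 1 and 0 elsewhere. LOC105034244, uncharacterized, had 353, 302 and 194 reads under waterlogging, 316 in Salinity 2 and 574 in Cold 2, with 7 to 19 in every other library. LOC105035040, which is not on that list, had 302, 177 and 197 reads under waterlogging, 344 in Salinity 2, 110 in Cold 2, and a single read in 1 other library.

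The same 5 libraries thus carried all 5 genes. Against control, where it had 0 reads, LOC105035040 was at least 301-fold higher (floor of 3 reads over the group). The calls of LOC105032992 and LOC105035040 were near the threshold (edgeR adjusted p 0.0374 and 0.0328), and leaving out any control library ended both (adjusted p 0.0711 to 0.108). When edgeR was given only the 6 waterlogging and control libraries, the adjusted p were 0.00028 and 0.000619. LOC105047119 had the largest fall, but on 1 library. It had 1, 0 and 0 reads under waterlogging, against 3, 4 and 2123 in control, and 852, 667 and 1 in drought. Without Control 3 its log2FC was -2.67 and it was not called (adjusted p 0.679). Of all 23830 tested genes 78 (0.327%) had at least 100 reads in 1 library and at most 3 in another of the same group, and 12 of the 4668 DEGs did, all 12 with a change over 4-fold. Each library pools 3 seedlings, and what the carrying libraries share was not tested.

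Waterlogging was next set directly against each other stress, contrasts that set no control library on either side, although control libraries share in the estimate of the spread. It was closest to salinity, from which 61 genes (0.256%) were higher and 87 (0.365%) lower. Against drought 854 (3.58%) were higher and 820 (3.44%) lower, against heat 1937 (8.13%) and 1882 (7.90%), and against cold 3229 (13.6%) and 2673 (11.2%). Light-harvesting genes followed this order. Of the 21, 0 differed from salinity (median log2FC 0.37), 9 were higher than under drought (0.86), 11 higher than under heat (1.00) and all 21 higher than under cold (3.12). None was lower under waterlogging in any of these comparisons. No flavonoid gene differed from drought or salinity, while 6 of 7 were higher than under heat. The waterlogging libraries differed greatly in these genes, which limits all of these comparisons. As a share of reads the 7 genes held 0.0572 to 0.702% under waterlogging (median 0.137%). Under heat they held 0.0578 to 0.072%, so the groups overlapped on this measure. Among unfolded protein binding genes, which the heat samples supplied, 16 of 26 were lower under waterlogging than under heat.

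Only a small set of genes stood apart from all 4 other stresses in 1 direction. There were 25 higher (0.105%) and 16 lower (0.0671%) under waterlogging. Of the 25, 16 were also higher and 1 lower than in control. Of the 16, 9 were also lower and 2 higher than in control. These counts moved when single libraries were left out. Without Waterlogging 3 they were 86 and 74, without Waterlogging 1 15 and 2, without Waterlogging 2 13 and 3, without Salinity 2 9 and 4 and without Salinity 3 10 and 7. The lower count was 9, 10 and 10 without Drought 1, 2 and 3 and 25 without Cold 3. In every one of 18 fits that left out a library, 6 of the higher and 2 of the lower genes were found again.

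Novel00299 was the most abundant of the 6 by reads. It had 10430, 7821 and 4005 CPM under waterlogging, against a mean of 677.0 in drought, 1390 in salinity, 1122 in heat and 734.3 in cold, and 646.4, 697.2 and 769.4 CPM in control (log2FC 3.40 ± 0.37 SE against control, adjusted p 3.83e-06). LOC105033645, listed under oxidoreductase activity and chloroplast, had 1173, 768.4 and 489.8 CPM under waterlogging, 129.1 to 235.6 under salinity and 43.2, 57.0 and 38.4 in control (log2FC 4.13 ± 0.30 SE, adjusted p 2.15e-07). LOC105045883, with no description, had 956.9, 606.4 and 417.1 CPM under waterlogging, 153.1 to 218.5 under cold, its next highest group, and 75.7, 74.1 and 56.6 in control. All 3 were highest in Waterlogging 1 and lowest in Waterlogging 3. LOC105049645 of protein dephosphorylation and LOC105034087 and LOC105054617 were the others.

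The lower genes found in all 18 fits were no DEGs against control. LOC105040563, listed under sequence-specific DNA binding, had 8.66, 8.94 and 8.50 CPM under waterlogging and 7.80, 7.71 and 9.27 CPM in control. Its mean was 187.8 CPM in drought, 34.2 in salinity, 41.1 in heat and 33.5 in cold. The difference between waterlogging and control was a log2FC of 0.08 (adjusted p 0.859). The other of the pair, LOC105049065, was close to undetected, with 4, 8 and 4 reads under waterlogging and 10, 8 and 10 in control. It had 0.266, 0.497 and 0.306 CPM under waterlogging, against a mean of 7.81 CPM in drought, 1.30 in salinity, 1.21 in heat and 2.18 in cold.

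**Figure D5:**
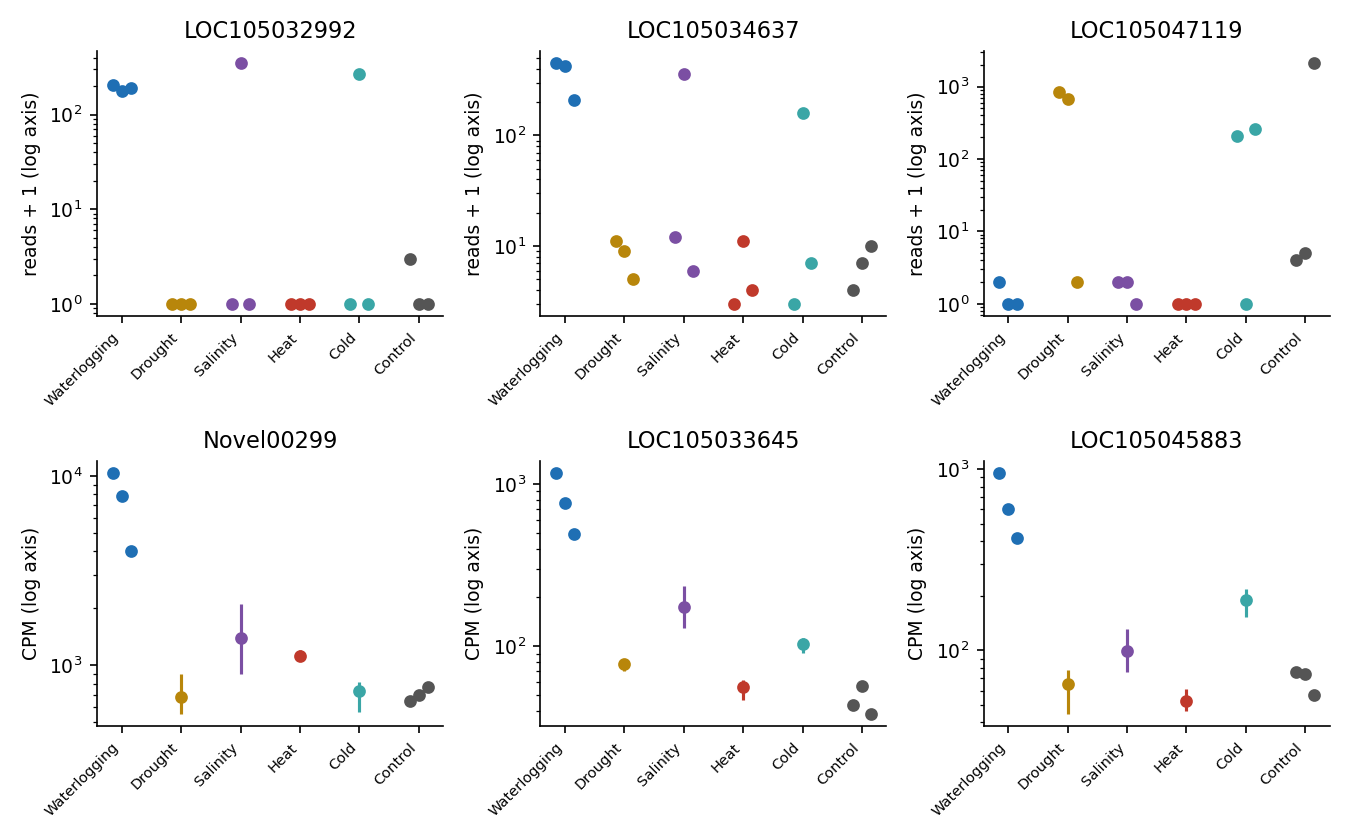
Values of 6 genes in the 6 groups. The upper panels give reads plus 1 (log axis) in each of the 18 libraries for LOC105032992 and LOC105034637, read in the 3 waterlogging libraries, Salinity 2 and Cold 2, and for LOC105047119, read in Control 3, Drought 1 and 2 and Cold 1 and 3. The lower panels give CPM (log axis) for Novel00299, LOC105033645 and LOC105045883, with a point per library for waterlogging and control and the mean with a line from lowest to highest library for the other stresses; the waterlogging points lie above all others.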

How the data were processed

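Paired-end reads were mapped by the authors with TopHat2, allowing 2 mismatches, to the oil palm genome. The deposited counts are whole reads per gene from HTSeq, not normalized. The sources used here name neither the assembly version nor the strand setting. The deposited FPKM values were made by the authors from these counts, divided by gene length and library total. No column of the authors' own comparisons was used.

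Counts of all 18 libraries were fitted in 1 model with edgeR 4.0.16 (R 4.3.3) after TMM scaling and a filter on low counts (10 reads at the median library and 15 in all), with 1 coefficient per group and 12 residual degrees of freedom. DEGs had a Benjamini-Hochberg adjusted p under 0.05 over all genes tested and a change of at least 2-fold. SE was taken from the log2FC and the F statistic, and adjusted p in the text are edgeR's unless stated. Genes apart from all other stresses were called in all 4 direct contrasts in the same direction. The script was tested on simulated data. Counting intervals and floors (3 reads) cover counting error only. Totals of the 18 libraries were 14839345 to 22126971 reads.

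Genes were named by rule: the 12 largest changes in each direction with at least 5 CPM in a group, up to 4 DEGs of largest change and the 2 most abundant genes of each list, the genes the study tabulates for waterlogging and its core signalling genes, and the genes apart from other stresses. The text gives a part of these. Genes read in the same few libraries, and genes whose values differed most between libraries of a group, were singled out after their values were seen. Members and lists were chosen with earlier results of these data known. The lists are members named in the study's GO table, whose 19 molecular function rows for salinity were left out because their labels did not match their sizes. The reference table holds no descriptions or sequences, so word lists, cell type markers and promoter motifs planned from them were not used.

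Alternatives were RLE scaling, library totals, no filter or a filter of 1 CPM in 3 libraries, glmTreat, a replicate block, edgeR or DESeq2 1.42.0 on 6 libraries, limma 3.58.1 on log2(FPKM + 1) or log2(FPKM + 0.1), and leaving out each library.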

Additional observations from a re-analysis of the deposited data

How the results depend on the processing

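No DEG was called in the opposite direction in any of 28 alternatives. Of the 2873 higher and 1795 lower DEGs, 2139 and 1005 were found again in every fit that left out 1 library, and 1059 and 365 in every alternative. Library totals gave 1736 higher and 4277 lower DEGs, and 14 and 37 genes apart from every other stress. The glmTreat test, which puts the 2-fold minimum into the test itself, gave 1345 and 407 DEGs and 0 and 0 genes apart. With limma, log2(FPKM + 1) gave 1167 higher and 2154 lower DEGs, and log2(FPKM + 0.1) gave 1532 and 3924. The FPKM values are divided by library totals, the scaling that moved the split in edgeR as well. Leaving out 1 library gave 2704 to 2959 higher and 1535 to 2098 lower DEGs, and 9 to 86 higher and 2 to 74 lower genes apart. The lower count was 25 without Cold 3 and 9, 10 and 10 without Drought 1, 2 and 3. The other scalings, filters and tools moved neither count of DEGs by over 1.5 times.

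Whether the replicate numbers pair the samples cannot be settled with 3 libraries per group. Same-numbered waterlogging and control libraries had correlations of their deviations of 0.091, 0.058 and 0.059. Those with different numbers had -0.251 to 0.191, and not every library correlated best with its own number. With the number as a replicate block, 2833 genes were higher and 1774 lower, and 10 genes instead of 16 were lower than under every other stress.

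Depth limits the genes read a few times, such as the 3 untested genes that the study lists for waterlogging. DESeq2 gave no adjusted p for 2129 genes.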

Other observations

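The gene models that the authors added and the numbered genes are set side by side here, and the difference between both kinds was not tested. Of 744 tested added models 69 (9.27%) were higher and 143 (19.2%) lower under waterlogging, with a median log2FC of -0.26. Among the 23086 numbered genes the counts were 2804 higher (12.1%) and 1652 lower (7.16%), and the median log2FC was -0.04. With library totals 47 added models were higher and 227 lower, and 1689 numbered genes higher and 4050 lower. Novel00255 had 52.9, 41.4 and 51.9 CPM under waterlogging, against 2.57, 1.34 and 1.11 CPM in control (log2FC 4.86, edgeR adjusted p 1.41e-06). Novel00770 had 0.466, 1.24 and 2.15 CPM under waterlogging and 14.1, 20.6 and 14.9 CPM in control (log2FC -3.70, adjusted p 1.53e-05). The files do not say what these models encode.

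DEGs of 1 direction also stood next to each other on chromosomes of the EG11 assembly, where 25805 of the gene numbers could be placed. There were 13 runs of 4 or more neighbours that were all higher and 3 that were all lower. The longest run held 5 genes, LOC105040724, LOC105040720, LOC105040719, LOC105040718 and LOC105040716, with log2FC of 1.25 to 3.89. How many such runs arise without any link between neighbours was not tested.

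Genes for plastid tRNA and rRNA, 46 in the tables, took a small share of the reads, 0.00815, 0.00817 and 0.0073% under waterlogging and 0.00306, 0.00538 and 0.00492% in control. The groups did not overlap.

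The study lists 41 genes as raised under 1 of the other stresses alone, so by its own calls none changed under waterlogging. Here 30 were tested, and 8 were called higher and 0 lower under waterlogging, beside 12.1% and 7.53% of all tested genes. Several of the 8 rested on few reads, such as LOC105034790 with 4, 2 and 4 under waterlogging and 1, 0 and 0 in control. LOC105061250 had more, with 4, 77 and 99 under waterlogging and 8, 6 and 3 in control. Of the 5 tested genes listed for salinity 4 were higher, and of the 8 tested genes listed for heat 0 were.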
